A study of Mus musculus with 12 samples.

Results

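The chemokine ligands examined here were 10 genes for secreted proteins that direct leukocyte movement, Ccl2, Ccl3, Ccl4, Ccl6, Ccl8, Ccl9, Ccl24, Cxcl2, Cxcl10 and Cxcl12. They were selected by name from the 23420 genes of the deposited count table, in which all 10 were present, and the selection rule was by gene name alone, in a list drawn up with earlier results of these data known. RNA had been sequenced from cells labelled monocytic myeloid-derived suppressor cells (M-MDSCs), sorted as CD11b+Ly6G-Ly6Chi cells from the bone marrow. The aged group comprised 6 mice of 24 months and the young group 6 mice of 6 months, all male C57BL/6JNIA with no stated treatment or transgene, and each mouse gave 1 library. The comparison asks how transcript levels of these ligands in these sorted marrow cells differ with age.

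Chemokines bind G protein-coupled receptors on leukocytes and set up gradients along which the cells migrate. CC ligands mostly act on monocytes, macrophages, eosinophils and T cells, ELR-bearing CXC ligands such as Cxcl2 act on neutrophils, and Cxcl10 acts on activated T cells. In bone marrow, Cxcl12 is made chiefly by perivascular stromal cells and retains stem cells and neutrophils through its receptor Cxcr4, whereas Ccl2 promotes monocyte egress through Ccr2. Ccl3 and Ccl9 are also known to act on osteoclast precursors through Ccr1.

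Aged libraries held between 8737941 and 16300374 counted fragments and young libraries between 4613239 and 9079237, the smallest from young mice 1 and 2. Young mice 5 and 6 stood apart from the rest of their group. The chi-square between libraries per gene was 22.4 to 38.1 for the 8 pairs that joined either of them to another young mouse, against 1.72 to 5.92 for the 6 pairs among the other young mice and 4.14 between the 2 themselves. Their summed level over 14 neutrophil markers was 91634 and 93037 CPM (counts scaled to library size with TMM factors), against 121923 to 140882 CPM in the other young mice and 142202 to 167437 CPM in the aged. Aged libraries were spread as widely, with a chi-square per gene of 5.42 (mice 1 and 2) to 37.8 (mice 5 and 7). The sorted label was checked against marker genes. Ly6c2, which encodes the sorted Ly6C antigen, was at 727 ± 74.6 CPM in aged and 500.3 ± 99.998 CPM in young mice (SD, n = 6 each), and Csf1r was at 141 ± 37.0 and 134 ± 15.9 CPM. The neutrophil granule gene Ngp was at 39630 ± 3370 and 30944 ± 4421 CPM, so neutrophil transcripts were abundant in libraries labelled as Ly6G-. Elane, Mpo and Prtn3 of the same list had means of 1.34 to 5.26 CPM. The monocyte gene F13a1 was at 21.04 ± 17.98 and 26.9 ± 9.94 CPM. All 12 monocyte markers summed to 11977 to 17373 CPM in aged and 14760 to 19301 CPM in young mice, mostly from Lyz2. In such sorted bulk samples, fewer cells of a type and less RNA per cell cannot be told apart. Numbers in the column headers placed every young sample (11 to 16) before every aged one (17 to 26), so any change in handling after number 16 cannot be told apart from age.

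Of the 6 ligands with enough counts for the test across all genes, 1 rose with age, 1 fell, and 4 did not pass the test. Ccl8 and Ccl24, at low counts, were higher in aged mice by a permutation test of each gene alone, with p-values not adjusted. Cxcl12 was 5.09-fold higher in the aged libraries and Ccl3 was at 0.449 of its young level in edgeR's quasi-likelihood fit, with p-values adjusted (Benjamini-Hochberg) across the 9742 genes that could be tested. Ccl4, Ccl6, Ccl9 and Cxcl2 were tested and not called. Ccl2, Ccl8, Ccl24 and Cxcl10 had too few counts to pass the filter on low counts and were compared one at a time with an exact permutation test over the mice. Over all tested genes, 45.0% were called, 22.2% higher and 22.8% lower in aged mice, so 2 of 6 members called lay close to that background. The median log2 fold change of the 6 tested members was 0.08, beside 0.01 for all tested genes. Values of the 2 ages did not overlap for 21.8% of tested genes and for none of these 6 members. These shares cover tested genes only and give no background for Ccl2, Ccl8, Ccl24 and Cxcl10.

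**Figure D1:**
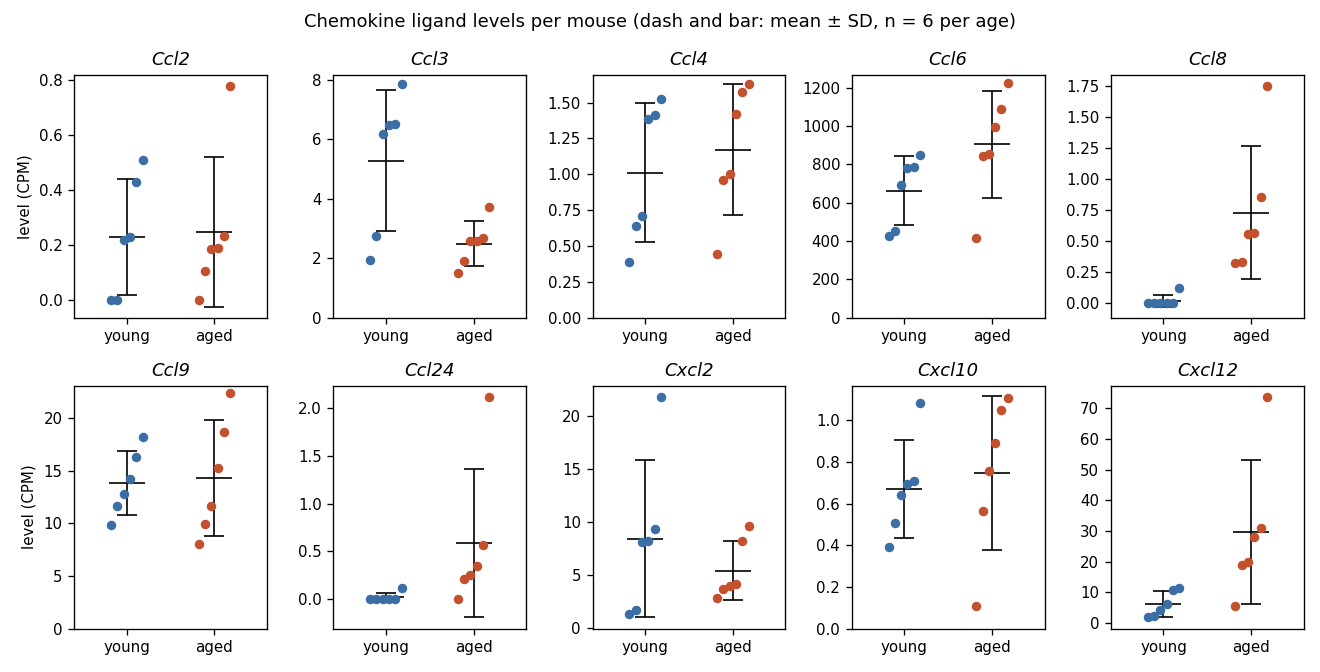
Level in CPM (linear vertical axis, own scale in each panel) of each of the 10 ligands in 6 young (blue) and 6 aged (orange) mice. Each point is 1 mouse, and the dash and bar give the mean ± SD. Cxcl12 was above all young values in 5 of 6 aged mice, Ccl8 in 6 of 6, and Ccl3 was highest in 4 young mice.

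Ccl6 supplied nearly all of the chemokine RNA. Per kilobase of exon it was at 630 ± 196 CPM in aged and 462 ± 127 CPM in young mice, and 88.6% to 96.8% of the fragments of the 10 ligands in each library were from Ccl6. By mean level it stood at the 99.1th percentile of all genes in the table. In aged mice, the mean levels per kilobase that followed were 4.996 ± 2.56 CPM for Cxcl2, 4.76 ± 1.83 for Ccl9, 4.13 ± 3.27 for Cxcl12 and 3.15 ± 0.966 for Ccl3, each within 1 SD of the next. Ccl4 at 1.78 ± 0.688, Ccl8 at 1.43 ± 1.05, Cxcl10 at 0.678 ± 0.337, Ccl24 at 0.453 ± 0.601 and Ccl2 at 0.309 ± 0.339 CPM per kilobase were lower, and again each lay within 1 SD of the next. In young mice, the order below Ccl6 was Cxcl2 at 7.77 ± 6.84, Ccl3 at 6.68 ± 2.99, Ccl9 at 4.604 ± 1.02, Ccl4 at 1.53 ± 0.736, Cxcl12 at 0.870 ± 0.583, Cxcl10 at 0.611 ± 0.215 and Ccl2 at 0.287 ± 0.262 CPM per kilobase, with Ccl8 at 0.0386 and Ccl24 at 0.0149. Of these, Ccl3 lay within 1 SD of Cxcl2 and of Ccl9, and Cxcl12 within 1 SD of Ccl4 and of Cxcl10, while the steps from Ccl9 to Ccl4 and from Cxcl10 to Ccl2 were larger than 1 SD of either gene. Cxcl12 thus ranked 4 of the 10 ligands in aged and 6 in young mice.

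The DNA before the start sites of 6 members is shown, since these are the ligands that were called (Ccl3 and Cxcl12), the most abundant ligand (Ccl6), the low-count ligand whose ages did not overlap (Ccl8) and the ligands with matches to several motifs (Cxcl2 and Cxcl10). RefSeq promoter sequences on GRCm38.p6 (mm10) matched 7 of the 10 members. Each run gives the 250 bases before the RefSeq start, 5′ to 3′ on the gene's strand. Its start site is identical to that of the count table for 6 genes and 5 bases from it for Cxcl12. Capitals mark matches on either strand to a kB site (GGGNNNTTCC), an interferon-stimulated response element, ISRE (GAAANNGAAA), and a GC box (GGGCGG).
Ccl3 (chr11:83649379-83649628, minus strand): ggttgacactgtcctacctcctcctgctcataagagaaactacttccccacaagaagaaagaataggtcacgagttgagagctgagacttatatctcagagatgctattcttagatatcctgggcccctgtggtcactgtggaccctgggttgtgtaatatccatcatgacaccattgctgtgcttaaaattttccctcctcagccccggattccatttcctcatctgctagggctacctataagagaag
Cxcl12 (chr6:117168285-117168534, plus strand): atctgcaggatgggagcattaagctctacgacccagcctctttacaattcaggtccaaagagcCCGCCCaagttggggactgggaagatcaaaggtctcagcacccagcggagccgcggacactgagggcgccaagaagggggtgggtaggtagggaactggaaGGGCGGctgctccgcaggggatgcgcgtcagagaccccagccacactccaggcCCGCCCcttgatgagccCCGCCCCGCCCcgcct
Ccl6 (chr11:83593088-83593337, minus strand): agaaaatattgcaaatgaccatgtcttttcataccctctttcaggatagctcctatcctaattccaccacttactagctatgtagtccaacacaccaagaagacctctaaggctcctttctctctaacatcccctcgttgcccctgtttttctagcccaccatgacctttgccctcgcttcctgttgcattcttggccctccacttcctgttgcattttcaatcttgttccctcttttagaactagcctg
Ccl8 (chr11:82114935-82115184, plus strand): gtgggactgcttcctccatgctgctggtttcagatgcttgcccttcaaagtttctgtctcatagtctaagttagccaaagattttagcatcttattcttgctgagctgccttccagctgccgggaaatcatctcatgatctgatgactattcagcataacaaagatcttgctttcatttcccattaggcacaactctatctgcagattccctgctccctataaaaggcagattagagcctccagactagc
Cxcl2 (chr5:90903649-90903898, plus strand): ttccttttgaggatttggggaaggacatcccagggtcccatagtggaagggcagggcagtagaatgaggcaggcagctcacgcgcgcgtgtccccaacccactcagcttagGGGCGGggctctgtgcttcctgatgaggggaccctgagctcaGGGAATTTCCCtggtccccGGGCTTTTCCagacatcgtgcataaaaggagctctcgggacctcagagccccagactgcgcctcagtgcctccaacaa
Cxcl10 (chr5:92348890-92349139, minus strand): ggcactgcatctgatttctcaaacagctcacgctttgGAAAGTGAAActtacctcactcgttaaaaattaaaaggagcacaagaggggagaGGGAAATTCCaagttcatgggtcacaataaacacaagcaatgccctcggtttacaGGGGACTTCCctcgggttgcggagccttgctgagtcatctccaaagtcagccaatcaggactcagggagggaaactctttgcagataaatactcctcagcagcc

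Cxcl2 held a kB match at -97 to -88 that overlapped a reverse-strand match at -96 to -87, a further one at -78 to -69, and a GC box at -139 to -134, counted from the start base as 0. Cxcl10 held kB matches at -159 to -150 and -104 to -95 and an ISRE match at -213 to -204. Ccl9, whose sequence is not shown, held 1 kB match at -35 to -26 on the reverse strand. Cxcl12 held 5 GC boxes, of which those at -16 to -11 and -11 to -6 shared 1 base, and no kB or ISRE match. No match to these 3 motifs was in the windows of Ccl3, Ccl6 and Ccl8. Over all 32851 promoters of this length, 4.65% held a kB match, 2.98% an ISRE match and 32.7% a GC box. The matches describe letters in these windows and were not tested for binding.

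Cxcl12 showed the largest change of the tested members. The gene lies at chr6:117168540-117181370 on the plus strand, with 4 exons and 7161 exonic bases in the deposited annotation. Aged mice had 5.45 CPM in the lowest library, a median of 24.0 CPM and 73.8 CPM in the highest, from 87 to 662 fragments. Young mice had 1.84 CPM in the lowest, a median of 5.33 CPM and 11.5 CPM in the highest, from 17 to 59 fragments. Aged mice 1, 2, 4, 5 and 6 were all above every young mouse, at 19.04 CPM or more, while aged mouse 7 lay within the young range. Means were 29.6 ± 23.5 CPM (aged) and 6.23 ± 4.18 CPM (young), and the log2 fold change was 2.35 with a standard error of 0.63 (edgeR, adjusted p = 0.0112). Without aged mouse 1 the log2 fold change was 1.83 (adjusted p = 0.0107), and no omission of a single mouse removed the call. Without young mice 5 and 6 together, which stood apart from the other young libraries, it was 1.98 and was no longer called (adjusted p = 0.0883).

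Markers of other marrow cells are given beside Cxcl12. The aged mouse with the highest Cxcl12, mouse 1, also had the highest summed level over 17 resident macrophage markers, 1951 CPM, against 674 to 970 CPM in the other aged mice and 437 to 609 CPM in young mice. Slc40a1, the iron exporter, supplied most of that sum in every mouse but aged mouse 1. Without it, the other 16 markers summed to 1342 CPM in aged mouse 1, 129 to 444 CPM in the other aged mice and 94.7 to 120.1 CPM in young mice. The complement gene C1qa, a macrophage marker, was 8.75-fold higher in aged mice (log2 fold change 3.13, SE 0.70, adjusted p = 0.00438) and 5.10-fold higher without mouse 1 (adjusted p = 0.00126), and 10 of the 13 tested macrophage markers were higher in aged mice, with a median log2 fold change of 2.47, beside 22.2% higher over all tested genes. Over the 14 stromal markers other than Runx2, the sum was 4.39 to 37.5 CPM in aged mice, highest in mouse 1 and lowest in mouse 7, and 5.32 to 7.10 CPM in young mice. With Runx2, which supplied most of the list, the sum was 61.0 to 92.5 and 72.1 to 94.5 CPM. Of the 15 genes 2 were tested, and 1 (Runx2) was lower in aged mice. Col1a1, the other, was at 3.09 ± 1.23 CPM in aged and 3.53 ± 1.23 CPM in young mice. It was not called (log2 fold change -0.26, SE 0.29, edgeR adjusted p = 0.478). Lepr, the leptin receptor that marks Cxcl12-abundant reticular cells, was at 0.501 to 5.24 CPM in aged and at 0 to 0.977 CPM in young libraries. Kitl, stem cell factor from the same cells, was at 0.376 to 6.91 and 0.109 to 0.592 CPM. Lepr and Kitl were below the filter on low counts and were not tested. The 7 endothelial markers summed to 11.4 to 24.97 CPM in aged and 3.35 to 8.36 CPM in young mice. Aged mouse 7, with Cxcl12 in the young range, had a macrophage sum of 701 CPM (258 CPM without Slc40a1) and an endothelial sum of 11.7 CPM, all above every young mouse. The part of these cells in the Cxcl12 difference was not tested.

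**Figure D2:**
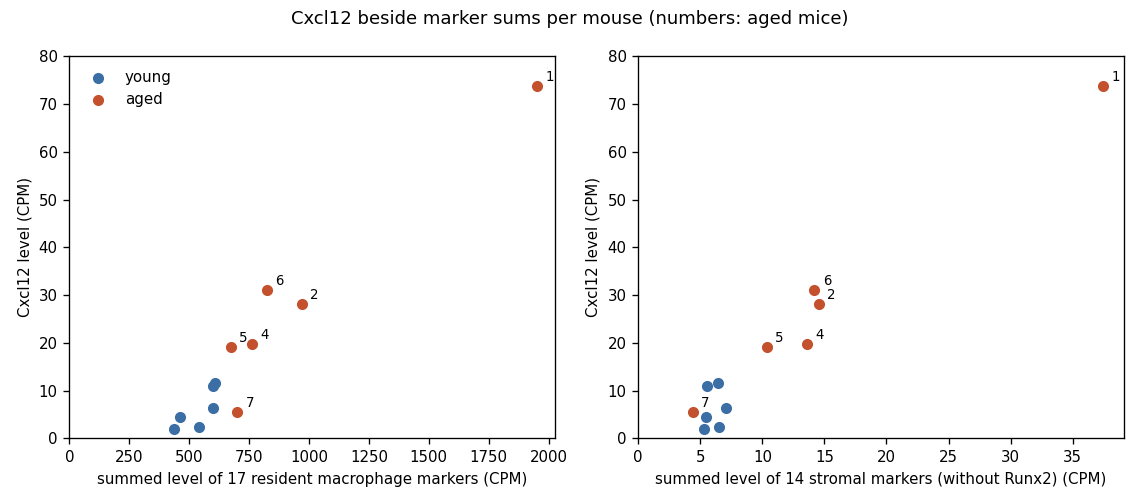
Cxcl12 level per mouse in CPM (vertical axis) against the summed CPM of 17 resident macrophage markers, Slc40a1 included (left), and of 14 stromal markers without Runx2 (right), for 6 young (blue) and 6 aged (orange, numbered) mice. Aged mouse 1 was highest on every axis, at 73.8 CPM of Cxcl12, and aged mouse 7 lay among the young mice for Cxcl12 at 5.45 CPM.

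Cxcr4, the receptor through which Cxcl12 acts, was also higher in the aged libraries. It was at 868 ± 100.4 CPM in aged and 681 ± 99.7 CPM in young mice, with a log2 fold change of 0.35 (SE 0.11, edgeR adjusted p = 0.0137). Ccr1, the receptor of Ccl3, Ccl6 and Ccl9, rose from 519 ± 102 to 740 ± 147 CPM (log2 fold change 0.51, SE 0.15, adjusted p = 0.0110). Ccr3, the eosinophil receptor that binds Ccl24, was at 8.38 ± 9.98 and 2.19 ± 1.01 CPM (log2 fold change 1.97, SE 0.73, adjusted p = 0.0441), with 27.8 CPM in aged mouse 1. Without that mouse its log2 fold change was 1.06 and it was not called (adjusted p = 0.0855). Cxcr1, a neutrophil receptor, rose by 1.79 on the log2 scale (SE 0.31, adjusted p = 0.000464). Ccr2, the Ccl2 receptor, was at 31.2 ± 22.2 and 37.1 ± 14.3 CPM (adjusted p = 0.696), and Cxcr2, the receptor of Cxcl2, was at 1517 ± 246 and 1278 ± 230 CPM (adjusted p = 0.128). Of the 24 receptors listed, 20 were in the table, 8 were tested, 4 were higher in aged mice, and the median log2 fold change of the 8 was 0.30, beside 45.0% called and 22.2% higher over all tested genes. None was lower in edgeR, either at an adjusted or at an unadjusted p under 0.05, in DESeq2 or in limma-voom. Without young mice 5 and 6, whose neutrophil marker sums were the lowest, 1 receptor was called higher. Of the 14 neutrophil markers, which include Cxcr2, 9 were higher and 0 lower in aged mice, with a median log2 fold change of 0.41. The part of neutrophil content in the receptor changes was not tested.

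Ccl3, which encodes macrophage inflammatory protein 1 alpha, was the member that fell. It lies at chr11:83647843-83649378 on the minus strand, with 3 exons and 790 exonic bases. Aged mice had 1.504 CPM in the lowest library, a median of 2.57 CPM and 3.73 CPM in the highest, from 20 to 32 fragments per mouse. Young mice had 1.93 CPM in the lowest, a median of 6.31 CPM and 7.84 CPM in the highest, from 9 to 77 fragments. Young mice 5, 6, 9 and 10 were all above every aged mouse, at 6.15 CPM or more, whereas the shallow libraries of young mice 1 and 2 had 2.73 and 1.93 CPM, within the aged range. Means were 2.49 ± 0.763 CPM (aged) and 5.27 ± 2.37 CPM (young), and the log2 fold change was -1.15 with a standard error of 0.30 (edgeR, adjusted p = 0.00628). No omission of a single mouse removed the call, and the log2 fold change was -0.89 without young mice 5 and 6 (adjusted p = 0.0495). It was lost with only the 3 aged mice of the lower sample numbers against the 6 young mice (-0.90, adjusted p = 0.0820) and in the 8 libraries with shared mouse numbers, both without the numbers as a block (-0.90, adjusted p = 0.0879) and with it (-0.77, adjusted p = 0.229).

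Ccl4, or macrophage inflammatory protein 1 beta, is the close relative of Ccl3 and lies next to it at chr11:83662584-83664683 on the plus strand. It did not pass the test. Levels were 0.446, 1.21 and 1.63 CPM (lowest, median and highest) in aged mice and 0.391, 1.05 and 1.53 CPM in young mice, so the ages overlapped, with 2 aged mice above every young mouse and young mouse 1 below every aged mouse. The log2 fold change was 0.12 with a standard error of 0.35 (edgeR, adjusted p = 0.803), with 4 to 17 fragments per aged and 2 to 15 per young library. Its direction turned with the setting, to -0.43 under a gene length correction and -0.11 without young mice 1 and 2. The difference between the changes of Ccl3 and Ccl4 was not tested.

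Cxcl2, the neutrophil attractant macrophage inflammatory protein 2, had a coefficient of variation of 88.1% between young mice, against 22.1% to 67.1% for the other 5 tested members. Its locus is chr5:90903899-90905938 on the plus strand. Aged mice had 2.88 CPM in the lowest library, a median of 4.05 CPM and 9.62 CPM in the highest. Young mice had 1.37 CPM in the lowest, a median of 8.13 CPM and 21.8 CPM in the highest. Young mice 1 and 2 were below all aged mice, at 1.37 and 1.71 CPM, and young mouse 6 was above all others, so no age direction was shared by the mice. The log2 fold change was -0.73 with a standard error of 0.54 (edgeR, adjusted p = 0.287). It was -1.16 and called without young mice 1 and 2 (adjusted p = 0.0320), -0.19 without young mouse 6 and 0.02 without young mice 5 and 6.

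Ccl3, Ccl4 and Cxcl2 shared their extremes among young mice. Each was lowest in young mice 1 and 2 and highest in young mouse 6. Genes induced by NF-kB in inflammation, listed as relatives of these ligands in regulation and holding none of the 10 members, were examined beside them. Of 24 such genes 21 were tested, 8 were lower and 1 was higher in aged mice, with a median log2 fold change of -0.10. Over all tested genes 45.0% were called, 22.2% higher and 22.8% lower. Zfp36, an RNA-binding protein that speeds the decay of inflammatory mRNAs, was at 343 ± 42.0 CPM in aged and 708 ± 154 CPM in young mice (log2 fold change -1.05, SE 0.13, edgeR adjusted p = 5.1e-05). Ptgs2, the inducible cyclooxygenase, was at 20.2 ± 9.08 and 61.1 ± 18.1 CPM (log2 fold change -1.62, SE 0.28, adjusted p = 0.000797), with 97.4 CPM in young mouse 6. Nfkbiz, a nuclear cofactor of NF-kB, was at 187 ± 24.6 and 298 ± 68.1 CPM (log2 fold change -0.68, SE 0.13, adjusted p = 0.000963). The summed level of the list was 1682 to 2032 CPM in aged and 2251 to 2920 CPM in young mice, highest in young mouse 6 and, among young mice, lowest in mice 1 and 2.

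Ccl6, the most abundant member, is a CC ligand of myeloid cells that acts through Ccr1. It is encoded at chr11:83587886-83593087 on the minus strand, with 4 exons. Aged mice had 414 CPM in the lowest library, a median of 926 CPM and 1227 CPM in the highest, and young mice had 426, 736 and 849 CPM. Aged mice 4, 5, 6 and 2 were above every young mouse and aged mouse 7 was below every young mouse. Young mice 5 and 6, at 451 and 426 CPM, were the lowest of their group. The log2 fold change was 0.45 with a standard error of 0.24 (edgeR, adjusted p = 0.151). Without aged mouse 7 it was 0.60 and called (adjusted p = 0.0154), and without young mice 5 and 6 it was 0.20 (adjusted p = 0.581).

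Ccl9, also a Ccr1 ligand and the neighbour of Ccl6, was at nearly the same level in both ages. The gene lies at chr11:83572917-83578636 on the minus strand. Aged mice had 8.02, 13.4 and 22.4 CPM (lowest, median and highest) and young mice 9.86, 13.5 and 18.2 CPM, with the young range lying inside the aged range. The means were 14.3 ± 5.50 and 13.8 ± 3.07 CPM. The log2 fold change was 0.03 with a standard error of 0.23 (edgeR, adjusted p = 0.922), and it took either sign across settings, from -0.17 to 0.22.

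**Figure D3:**
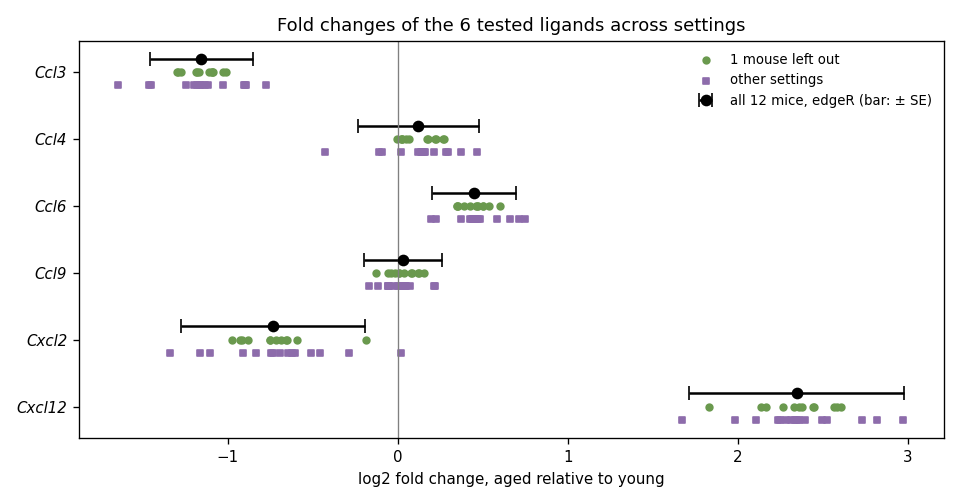
Log2 fold change, aged relative to young (horizontal axis), of the 6 ligands tested. Black points and bars give the edgeR estimate ± SE from all 12 mice, green points leave out 1 mouse and purple squares are the other settings tried. Cxcl12 was positive and Ccl3 negative in every setting drawn, at 2.35 and -1.15 with all mice, while Ccl4, Ccl9 and Cxcl2 crossed 0.

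Ccl8, the monocyte chemoattractant protein 2, was rare but was found in every aged mouse. Its position is chr11:82115185-82116799 on the plus strand, with 511 exonic bases. Aged mice had 0.321 CPM in the lowest library, a median of 0.559 CPM and 1.75 CPM in the highest, from 3 to 15 fragments each. Among young mice, 1 fragment was counted in mouse 10 (0.118 CPM) and none in the other 5, where 3 fragments would have been 0.306 to 0.643 CPM. The ages did not overlap, and how often that holds for genes below the filter was not counted. The means were 0.729 ± 0.536 against 0.0197 ± 0.0483 CPM (n = 6 each). The exact two-sided permutation test gave p = 0.00216, unadjusted, the smallest that 6 against 6 can give. Summed over mice, 45 against 1 fragments gave a ratio of 32.2 with an exact 95% interval of 5.49 to 1298, which covers counting error only. With every library randomly thinned once to the smallest total, the exact permutation test gave p = 0.0606.

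Ccl24, or eotaxin 2, which attracts eosinophils through Ccr3, was counted in 5 of 6 aged and 1 of 6 young libraries. It maps to chr5:135569940-135573040 on the minus strand. Aged mouse 1 had 19 of the 34 aged fragments and 2.12 CPM, the median aged level was 0.3001 CPM, and aged mouse 5 had none. The single young fragment was in mouse 9, at 0.116 CPM. The means were 0.583 ± 0.774 and 0.0193 ± 0.0472 CPM (exact two-sided permutation test, n = 6 each, p = 0.0152). The pooled ratio was 24.3 with an exact 95% interval of 4.08 to 988. Without aged mouse 1 the difference of the means fell from 0.564 to 0.257 CPM, with the same p. The exact permutation p was 0.143 without young mice 5 and 6, without young mice 1 and 2, and in the 8 libraries with shared mouse numbers, and 0.0833 with only the aged mice of the higher sample numbers.

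Ccl2, the chief monocyte attractant, was barely detected at either age. The gene lies at chr11:82035577-82037452 on the plus strand. Aged mice had 0 to 7 fragments and young mice 0 to 5, with medians of 0.186 and 0.224 CPM, and the highest value was 0.780 CPM in aged mouse 1. The means of 0.249 ± 0.273 and 0.231 ± 0.211 CPM did not differ beyond the spread (exact permutation test, n = 6 each, p = 0.918), and the pooled ratio was 0.975 (exact 95% interval 0.418 to 2.35).

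Cxcl10, the interferon-induced ligand of Cxcr3, lies at chr5:92346639-92348889 on the minus strand. Levels were 0.107, 0.825 and 1.11 CPM (lowest, median and highest) in aged and 0.391, 0.668 and 1.09 CPM in young mice, from 1 to 12 and 2 to 10 fragments. The ages overlapped, with means of 0.746 ± 0.371 and 0.672 ± 0.236 CPM (exact permutation test, n = 6 each, p = 0.690). The pooled ratio was 1.05 (exact 95% interval 0.656 to 1.70). With every library randomly thinned once to the smallest total, the direction turned, to a difference of -0.358 CPM (exact permutation test, p = 0.0281). Of 24 other genes that interferons induce, 22 were tested, 11 were higher and 1 was lower in aged mice, with a median log2 fold change of 0.60, beside 22.2% higher and 22.8% lower over all tested genes. Gbp2, a guanylate-binding protein, was at 27.2 ± 8.86 and 12.8 ± 3.75 CPM (log2 fold change 1.11, SE 0.24, edgeR adjusted p = 0.00215). Zbp1, a sensor of viral nucleic acid, rose by 1.18 (adjusted p = 0.00234) and Oas1a by 1.24 (adjusted p = 0.00486) on the log2 scale. Oas3 was at 557 CPM in aged mouse 5 and had a log2 fold change of 0.73 (adjusted p = 0.00729). Without young mice 5 and 6, 3 of the list were higher.

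Members that share a chromosome cluster differed widely in level. On chromosome 11, Ccl2 and Ccl8 start 79608 bases apart among 6 ligand genes, and 4 of the cluster had under 50 fragments in all 12 mice while Ccl11 and Ccl1 had none. Further along, Ccl5, Ccl9, Ccl6, Ccl3 and Ccl4 lie within one cluster, where Ccl6 had 84757 fragments over all mice, Ccl9 had 1566, Ccl3 had 420, Ccl4 had 126 and Ccl5 had 20. On chromosome 5, Cxcl2 had 779 fragments while its nearest neighbour Cxcl1, 10784 bases before it, had none in any mouse. Pf4 of the same cluster, a platelet chemokine, had 182 fragments in aged mice, with 14.3 CPM in aged mouse 1, and 1 fragment in young mice. Cxcl9, the neighbour of Cxcl10 and a ligand of the same receptor, was at 1.48 ± 1.22 and 0.358 ± 0.251 CPM. None of the 30 other chemokine ligands in the table passed the filter on low counts. Of these, 16 had no fragment in any mouse, 5 had fragments in aged mice only, and 6 had over 3 fragments in each age. Among the 16, Ccl19, Ccl21a, Ccl21b, Ccl21c and Ccl27b are annotated at several places. The mapping quality filter can remove such fragments, so their absence is not shown. The mean was higher in aged mice for 13 of the 14 with a fragment, some of them at a few fragments. Ccl25 was the exception at 0.916 ± 0.291 against 1.496 ± 0.620 CPM, named after its values were seen. Aged libraries were deeper, with a median of 10384679 against 8503571 fragments, which favours finding rare transcripts in aged mice. The share of all genes below the filter with a higher aged mean was not computed, so these counts have no background. The summed level of the 30 other ligands was 3.64 to 33.7 CPM in aged and 1.95 to 3.58 CPM in young mice, highest in aged mouse 1.

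**Figure D4:**
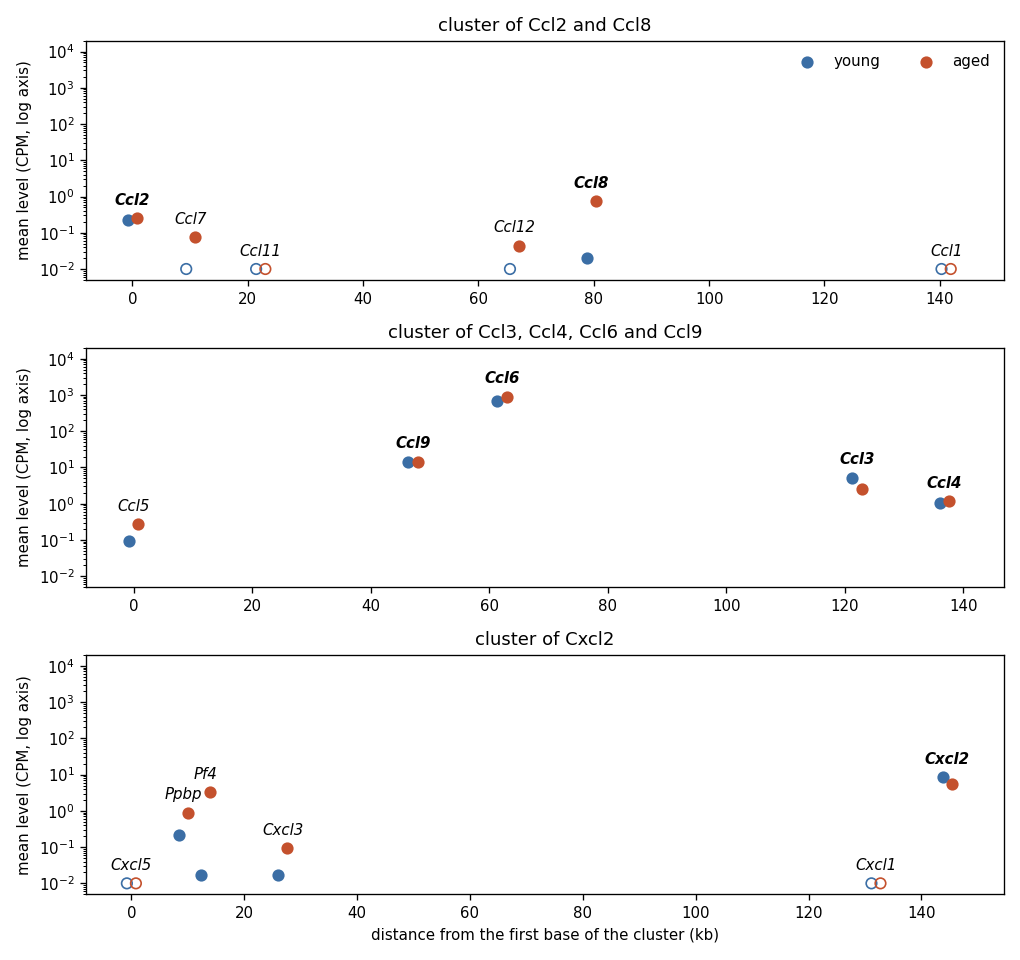
Mean level in CPM (log axis) of the chemokine ligand genes in 3 chromosome clusters, by distance in kb from the first base of the cluster, in young (blue) and aged (orange) mice. Points are means over 6 mice, open circles at the bottom mark genes with no fragment in that age, and bold names are members. Ccl6, with 905 and 664 CPM, stands far above its neighbours in the same cluster.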

How the data were processed

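RNA from marrow cells sorted as M-MDSCs of 12 mice was sequenced in pairs from stranded libraries, 1 per mouse, and samples were grouped by the age in their labels. The deposited counts are whole fragments per gene over exons, which the authors obtained with featureCounts 2.0.0 on a UCSC annotation of mm10, counting by strand with both ends aligned and a mapping quality of at least 60. That filter removes fragments that fit several places and lowers genes with near-identical copies. The aligner is not given in the sources used here, and no normalization had been applied. Gene length is the deposited exonic length. No deposited column was left out.

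Counts were tested in R 4.3.3 with edgeR 4.0.16 (filterByExpr with a minimum count of 10, TMM factors, robust quasi-likelihood fit, Benjamini-Hochberg adjustment, adjusted p threshold 0.05), aged against young, with no covariate. The scripts were tested on simulated counts. CPM used the TMM-scaled totals of tested genes. Members under the filter were compared by an exact two-sided permutation test, unadjusted, over the 12 libraries. DESeq2 1.42.0, the study's tool in another version, limma-voom 3.58.1, other scalings and filters, a length correction and thinning were alternatives. Each mouse is a separate animal. Precision follows depth, with 3 fragments worth 0.188 to 0.643 CPM, and intervals cover counting error only. All members are named in full. Of the regulatory lists, the 3 called genes with the smallest adjusted p and abundant ones are named, except 1 gene that is not reported here. Members and lists were chosen with earlier results of these data known. The libraries with the least similar counts in a group were set aside in alternatives chosen after seeing the data.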

Additional observations from a re-analysis of the deposited data

Results flagged for a closer look

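With 6 mice in a group, a value was marked where its gap to the next was too large a part of the group's range by Dixon's test at the 95% level. A rate of about 1 in 20 groups holds for normally distributed values, not for a few fragments. Where only 1 mouse of a group had any fragment of a gene, its value was marked by construction. Of 108 groups tested, 23 held such a value, 11 of them in aged mouse 1. Single genes and sums that contain them were both tested, so the 23 are not independent and cannot be set against 1 in 20. Among the ligands, aged mouse 1 stood apart for Ccl2 at 0.780 CPM and for Ccl24 at 2.12 CPM, aged mouse 2 for Ccl8 at 1.75 CPM, and young mice 10 and 9 for the single fragments of Ccl8 (0.118 CPM) and Ccl24 (0.116 CPM). Aged mouse 1 was also high for Ccr3 (27.8 CPM), Kitl (6.91 CPM), Lepr (5.24 CPM), C1qa (84.7 CPM) and Pf4 (14.3 CPM), and for the summed levels of the other chemokine ligands (33.7 CPM), resident macrophage markers (1951 CPM), endothelial markers (24.97 CPM) and T and NK cell markers (37.9 CPM). Aged mouse 5 was high for Cxcr1 (15.1 CPM), Zbp1 (30.9 CPM), Oas1a (23.8 CPM), Oas3 (557 CPM) and the summed interferon-induced genes (2257 CPM). Young mouse 6 was high for Ptgs2 (97.4 CPM) and for Pf4 (0.102 CPM, 1 fragment), and young mouse 2 was high for Ppbp (0.643 CPM) and low for B and plasma cell markers (2.36 CPM).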

How the results depend on the processing

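The call of Cxcl12 was kept in every alternative except the one without young mice 5 and 6 (1.98 on the log2 scale, edgeR adjusted p = 0.0883). Its log2 fold change was 1.67 with the aged libraries of higher numbers, 2.82 with those of lower numbers and 2.97 without the shallow young libraries. The call of Ccl3 was kept in all but 3 of the alternatives that could test it. Same-numbered mice do not share an origin in the labels, and their deviations correlated at -0.25 to -0.07. With the replicate block over the 8 libraries with shared numbers, Ccl3 was at -0.77 (adjusted p = 0.229), and without the block in the same libraries at -0.90 (adjusted p = 0.0879), and the block left 0 members called lower, 7 interferon-induced genes higher and 0 lower. The causes of these moves were not tested.

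Ccl4 turned to -0.43 with the length correction, -0.095 with the aged libraries of lower numbers and -0.11 without both shallow young libraries (1 and 2), and was -0.0071 to 0.27 with 1 mouse left out. Ccl9 turned to -0.055 in limma-voom, -0.056 without TMM factors, -0.022 after thinning, -0.00021 with the block, -0.17 with the aged libraries of higher numbers, -0.051 without the shallow libraries and -0.11 without aged mice 1 and 7, and was -0.13 to 0.15 with 1 mouse left out. Cxcl2 turned to 0.022 without young mice 5 and 6. The difference of means turned to -0.106 CPM with the higher numbers and -0.0993 CPM without aged mice 1 and 7 for Ccl2 (-0.0882 to 0.0728 with 1 mouse left out), and to -0.358 CPM after thinning (exact permutation p = 0.0281) and -0.00408 CPM without the shallow libraries for Cxcl10.

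Members called higher numbered 3 in DESeq2 and with no filter, where Ccl8 (adjusted p = 0.000571 in edgeR without the filter) and Ccl24 (adjusted p = 0.00818) joined Cxcl12, 2 in the 8 libraries without the block and without aged mice 1 and 7, 0 without young mice 5 and 6, and 1 to 2 with 1 mouse left out. Members called lower numbered 0 with at least 10 counts in every library (where Ccl3 was not tested), with and without the block, and with the lower numbers, and 2 without the shallow libraries. Other ligands called higher numbered 5 in DESeq2 and 4 with no filter, and those lower 0 to 1 with 1 mouse left out. No share of comparable low-count genes called in those settings is given beside these counts. Receptors called higher numbered 2 with at least 10 counts, with the length correction and with the higher numbers, and 1 without young mice 5 and 6, and 1 was lower without aged mice 1 and 7 (0 to 1 with 1 mouse left out). NF-kB-induced genes called higher numbered 4 in DESeq2, 2 with upper quartile factors, the lower numbers or no robust option, 3 with no filter or without aged mice 1 and 7, and 1 to 2 with 1 mouse left out. Interferon-induced genes called higher numbered 6 with no filter and without the shallow libraries, 3 without young mice 5 and 6, and 5 to 13 with 1 mouse left out, the lowest without young mouse 5. Those called lower numbered 2 without TMM factors, 0 with at least 10 counts, thinning, the 8 libraries, the lower numbers or no young mice 5 and 6, and 1 to 2 with 1 mouse left out. Over all genes, 1337 were called higher without young mice 5 and 6, against 2166 with all mice.

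Counts limit Ccl2, Ccl8, Ccl24 and Cxcl10, with at most 19 fragments of any of them in a library.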
